A study of Homo sapiens with 6 samples.

Results

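The 51 genes described here build and run the DNA replication machinery: origin licensing factors, the replicative helicase, the sliding clamp and its loader, DNA polymerases, enzymes of nucleotide supply, chromatin assembly factors, E2F transcription factors with cyclin E, and S phase checkpoint and repair proteins. They were chosen by name with earlier results of these data known. All 51 were found among the 58735 genes of the count table and were among the 16577 genes abundant enough to be tested. Their RNA was measured in Huh7, an established human hepatocellular carcinoma cell line, grown in RPMI-1640 with fetal bovine serum. Cells of the shITGB5 group (3 libraries) expressed a hairpin RNA aimed at ITGB5, the integrin beta 5 subunit, and cells of the shcontrol group (3 libraries) a control hairpin. Both groups are the same line with no other treatment named. The sources used here give neither the hairpin sequences nor whether cells were a clone or a pool. Whether the libraries of a group were grown as separate cultures is not stated either, so each p-value reflects differences among these libraries that may be technical in origin.

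Replication begins in G1, when ORC, CDC6 and CDT1 load the MCM2 to MCM7 ring onto origins, a step called licensing. In S phase CDC45 and the GINS complex join that ring to make the active helicase, PCNA clamps the polymerases onto DNA, and ribonucleotide reductase supplies deoxynucleotides. Many of these genes are known targets of E2F transcription factors, which are released from RB proteins as cells pass from G1 into S phase.

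Library totals lay between 16563911 and 18011313 counts in shITGB5 cells and between 15777922 and 17476580 in shcontrol cells. ITGB5 itself had 173, 181 and 174 CPM in shITGB5 cells, against 205, 214 and 217 CPM in shcontrol cells. CPM is a count divided by the library total and expressed per 1e+06, after scaling by the trimmed mean of M values (TMM). It was thus 16.8% lower in shITGB5 cells (95% interval of the change -20.5% to -13.0%, edgeR quasi-likelihood test, Benjamini-Hochberg adjusted p = 2.13e-09). The exact two-sided permutation test gave p = 0.1, the smallest that 3 libraries against 3 allow. Of 8 hepatoma and hepatocyte markers 5 rose, and their summed level was 6778 to 6940 CPM in shITGB5 cells and 5994 to 6145 CPM in shcontrol cells. The 6 fibroblast markers summed to 324 to 333 CPM in shITGB5 cells and 289 to 303 CPM in shcontrol cells. Most of that sum was LUM, which rose, and COL1A2, whereas DCN had at most 4 counts in any library. The 4 endothelial markers summed to 4.12 to 5.45 CPM in shITGB5 cells and 3.56 to 5.64 CPM in shcontrol cells, with KDR at 0 throughout. The 5 blood markers, nearly all LYZ, summed to 6.29 to 6.87 CPM in shITGB5 cells and 6.48 to 7.52 CPM in shcontrol cells. Mitochondrial transcripts took 3.24% to 3.29% of counts in shITGB5 cells and 3.46% to 3.54% in shcontrol cells. Between 25856 and 26143 genes had a count above 0 in shITGB5 libraries and between 26795 and 26976 in shcontrol libraries. The hepatoma and fibroblast marker sums, the mitochondrial share and the number of genes detected did not overlap between the groups, and their part in the results below was not tested.

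The 51 replication genes were more often higher than lower in shITGB5 cells. Of the 51 genes, 21 rose (41.2%), 1 fell (1.96%) and 29 did not pass the test at an adjusted p of 0.05. Over all genes tested, 15.1% passed in either direction, 8.31% as higher and 6.74% as lower. Of 79 other replication genes, given below, 13.9% rose and 7.59% fell. The log2 change (shITGB5 minus shcontrol) was above 0 for 40 of the 51 and below 0 for 11, with a median of 0.12, against a median of 0 over all genes tested. The changes were small and ran from -0.14 for RFC1 to 0.39 for GINS2. All 3 shITGB5 libraries lay above all 3 shcontrol libraries for 30 of the 51 genes, a pattern that 14.7% of all genes showed, and below them for 1 gene, a pattern that 13.8% of all genes showed. The 51 genes together took 0.519%, 0.519% and 0.520% of all counts in shITGB5 cells, against 0.476%, 0.472% and 0.472% in shcontrol cells. These shares did not overlap between the groups. In bulk RNA a larger share of cells in S phase and more of each RNA per cell cannot be told apart.

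Abundance differed between the genes that rose and those that did not pass. The 21 that rose had a median level of 96.5 CPM, and the 29 that did not pass had a median of 40.5 CPM, and lower counts give wider intervals. Among the 11039 genes at least as abundant as POLA2, the least abundant replication gene at 6.39 CPM by the fitted mean, 11.9% were higher and 9.41% lower. That comparison was chosen after the values had been seen.

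**Figure D1:**
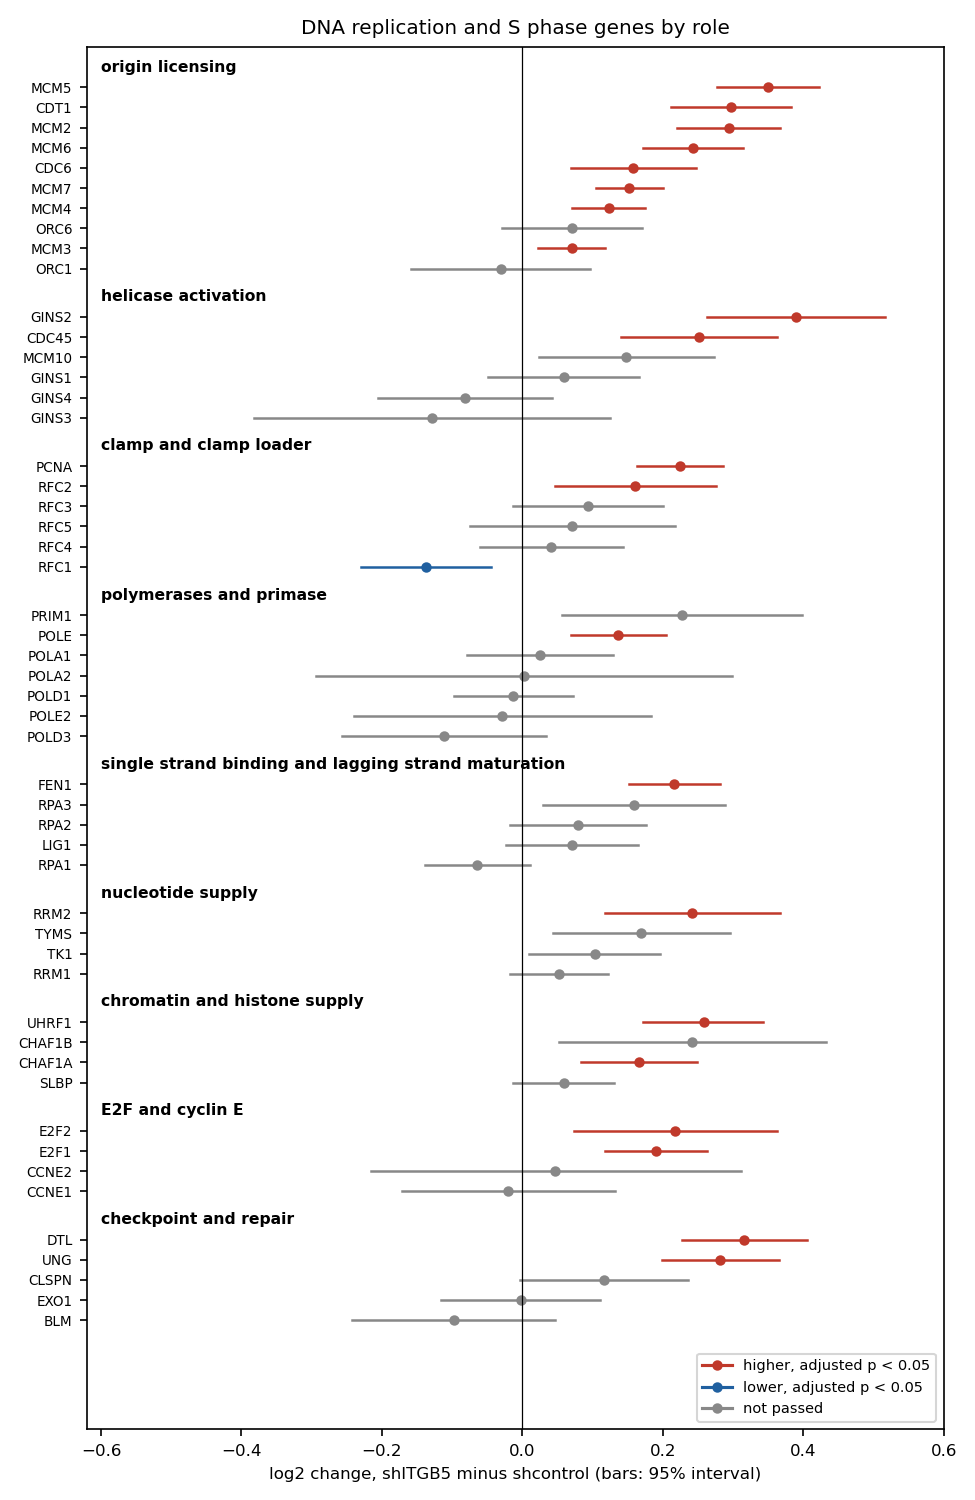
Log2 change of each of the 51 replication and S phase genes, shITGB5 minus shcontrol, with its 95% interval (n = 3 libraries a group), grouped by role. Red marks the 21 genes that rose, blue the 1 that fell (RFC1) and grey the 29 that did not pass. Red points fill most of the origin licensing block, where 8 of 10 genes rose, and only 1 of 7 in the block of polymerases and primase.

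**Figure D2:**
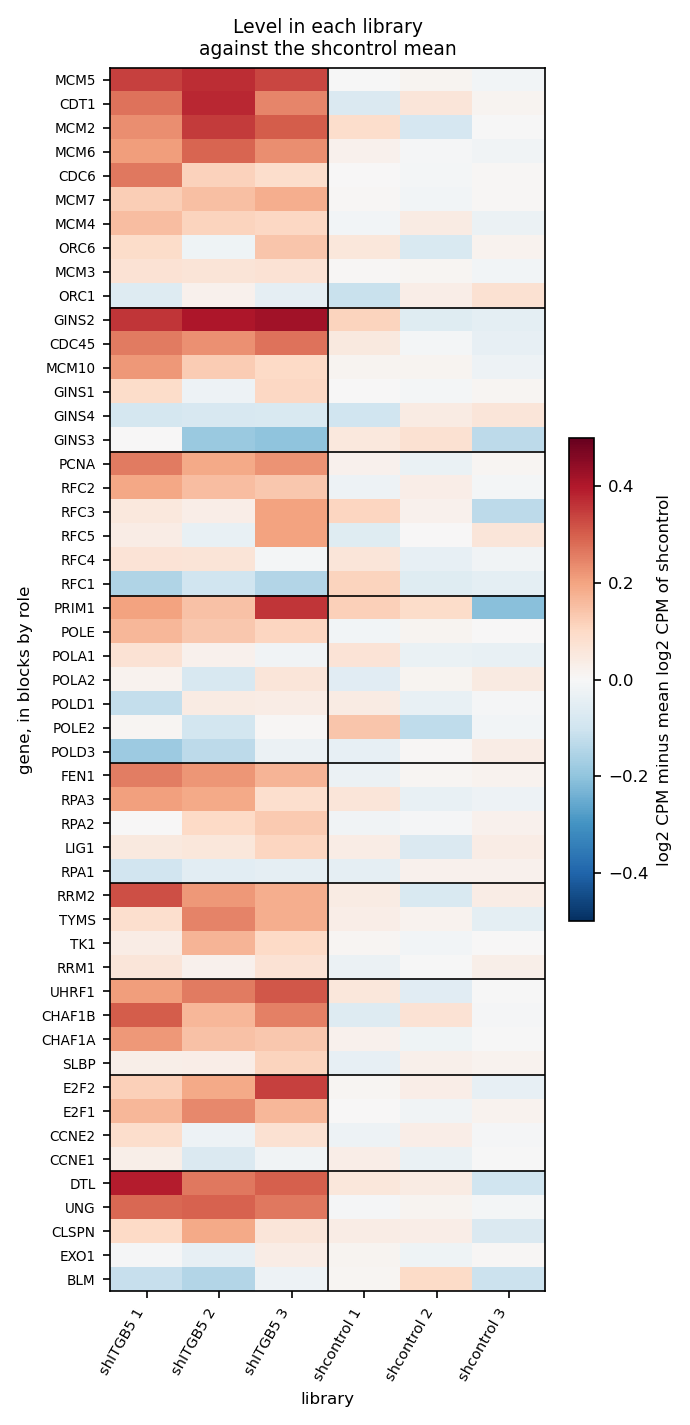
Level of each gene in each library, as log2 CPM minus the mean log2 CPM of the 3 shcontrol libraries, with shITGB5 libraries in the 3 left columns and roles separated by lines. MCM5, GINS2, DTL and UNG are red in all 3 shITGB5 columns, and RFC1 is blue in all 3.

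Promoter windows show what some of these genes share in sequence. RefSeq windows of 300 bases (250 before to 50 after an annotated start, GRCh38.p14) were available for 44 of the 51 genes, all but CCNE2, GINS4, MCM4, MCM5, POLD3, RPA2 and RPA3. Each window was searched on both strands for 4 words of the E2F consensus, TTTCCCGC, TTTGGCGC, TTTCGCGC and TTTGCCGC, of which some overlap each other. The windows below are those of CDT1, DTL, GINS2, MCM2 and E2F1, genes that rose and hold such a word, and of RFC1, the 1 gene that fell. They lie at chr16:88803539-88803838 (plus strand), chr1:212035498-212035797 (plus strand), chr16:85688905-85689204 (minus strand), chr3:127598161-127598460 (plus strand), chr20:33686336-33686635 (minus strand) and chr4:39366313-39366612 (minus strand), and each reads 5′ to 3′ toward the gene, with E2F words in capitals.
CDT1: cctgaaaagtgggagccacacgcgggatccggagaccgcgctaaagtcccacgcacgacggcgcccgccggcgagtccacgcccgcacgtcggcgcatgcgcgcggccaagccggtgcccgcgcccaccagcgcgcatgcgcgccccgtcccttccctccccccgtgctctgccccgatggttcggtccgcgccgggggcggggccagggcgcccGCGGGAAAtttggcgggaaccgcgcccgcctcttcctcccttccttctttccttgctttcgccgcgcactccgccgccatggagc
DTL: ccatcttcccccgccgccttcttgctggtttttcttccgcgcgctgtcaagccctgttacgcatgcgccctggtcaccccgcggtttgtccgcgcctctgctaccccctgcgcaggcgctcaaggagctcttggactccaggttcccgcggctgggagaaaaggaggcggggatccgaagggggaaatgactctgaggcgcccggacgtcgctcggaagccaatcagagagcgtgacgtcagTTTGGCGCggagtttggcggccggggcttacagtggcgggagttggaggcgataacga
GINS2: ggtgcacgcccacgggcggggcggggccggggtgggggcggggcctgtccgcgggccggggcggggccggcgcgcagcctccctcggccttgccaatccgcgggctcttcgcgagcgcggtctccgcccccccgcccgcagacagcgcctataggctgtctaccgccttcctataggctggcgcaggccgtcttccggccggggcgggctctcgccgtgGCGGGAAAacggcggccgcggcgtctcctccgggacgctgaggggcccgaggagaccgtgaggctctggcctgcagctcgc
MCM2: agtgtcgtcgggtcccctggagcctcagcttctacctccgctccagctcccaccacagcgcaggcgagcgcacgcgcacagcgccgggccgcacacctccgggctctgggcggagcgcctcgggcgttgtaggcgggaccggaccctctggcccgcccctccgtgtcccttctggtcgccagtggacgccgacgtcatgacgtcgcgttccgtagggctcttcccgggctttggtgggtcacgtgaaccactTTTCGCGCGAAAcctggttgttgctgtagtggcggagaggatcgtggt
E2F1: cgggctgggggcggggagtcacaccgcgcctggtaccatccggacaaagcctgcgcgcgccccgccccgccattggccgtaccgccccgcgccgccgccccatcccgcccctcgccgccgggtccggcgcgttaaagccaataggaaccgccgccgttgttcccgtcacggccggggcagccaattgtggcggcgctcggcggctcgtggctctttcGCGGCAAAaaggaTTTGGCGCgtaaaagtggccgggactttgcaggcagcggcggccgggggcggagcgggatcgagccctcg
RFC1: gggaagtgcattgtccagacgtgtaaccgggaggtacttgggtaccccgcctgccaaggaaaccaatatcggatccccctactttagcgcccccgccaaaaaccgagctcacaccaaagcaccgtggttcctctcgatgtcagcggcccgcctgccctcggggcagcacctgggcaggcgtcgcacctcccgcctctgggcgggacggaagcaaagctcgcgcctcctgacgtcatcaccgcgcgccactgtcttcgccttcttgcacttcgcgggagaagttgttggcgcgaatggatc
The DTL word ends 1 base before the annotated start, the GINS2 word lies 31 to 24 bases before it and the CDT1 word 35 to 28 bases before it. In MCM2, 2 words on opposite strands overlap at bases 3 to 14 after the start. E2F1 holds 2 words, at 33 to 26 and 20 to 13 bases before its own start. RFC1 has none of the words in this window, nor has any window of CDC45, CHAF1A, FEN1, RFC2 or RRM2, which rose. Among genes with a window, an E2F word was found in 14 of 19 that rose (73.7%), 10 of 24 that did not pass (41.7%) and 24 of all 44 (54.5%). The genes that rose had 28 windows, of which 53.6% held a word, and those that did not pass had 27, of which 37.0% did. By gene, the share was 26.5% for other replication genes and 10.0% for G2 and M phase genes. It was 6.41% of 11143 tested genes with a window and 3.99% of all 27305 genes with one. Of all 35116 windows of that length, 3.31% held a word. A CCAAT box (CCAAT, both strands) was in 73.7% of the genes that rose, 12 of the 24 that did not pass, 58.8% of other replication genes, 85.0% of G2 and M phase genes and 42.9% of tested genes. The CHR word (TTTGAA, both strands), an element known from promoters of G2 and M phase genes, was in 4.55% of the replication genes, 70.0% of 20 G2 and M phase genes and 14.1% of tested genes. These are matches of letters and not measured binding, and they were not tested.

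**Figure D3:**
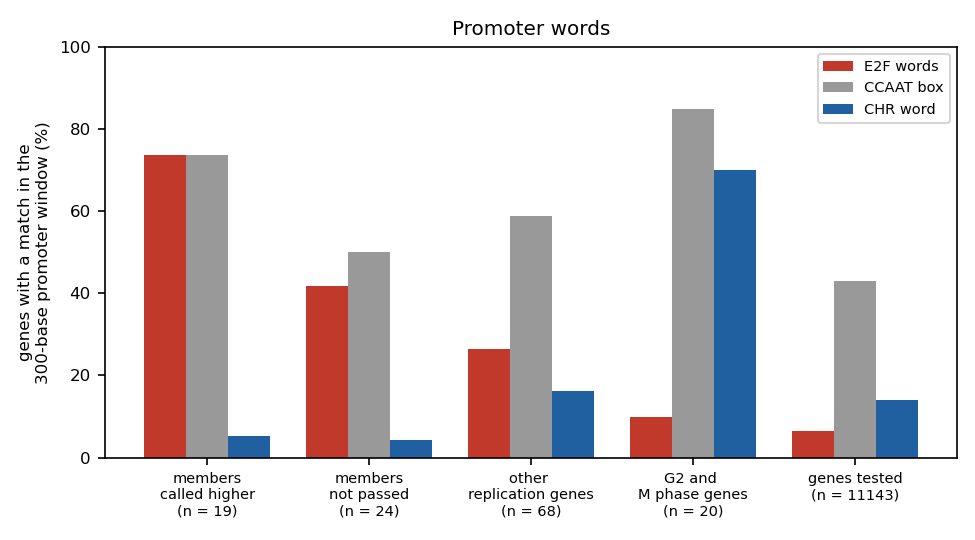
Share of genes (%) with at least 1 match in a 300-base promoter window, by gene group and word. Bars of E2F words stand at 73.7% for replication genes that rose and 6.41% for all tested genes, and bars of the CHR word at 70.0% for G2 and M phase genes.

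Origin licensing was the role with the most genes that rose: 8 of 10, with none lower and a median log2 change of 0.15. Of 17 other origin licensing and firing genes, 3 rose and 2 fell, with a median log2 change of -0.03. MCM5 (chr22:35400063-35425430), a subunit of the helicase ring, had 140, 142 and 139 CPM in shITGB5 cells, against 110, 111 and 109 CPM in shcontrol cells. The groups were well apart, with a log2 change of 0.35 (95% interval 0.28 to 0.42, edgeR, Benjamini-Hochberg adjusted p = 1.93e-11). CDT1 (chr16:88803213-88809258), which brings the ring to origins, had 104, 112 and 102 CPM in shITGB5 cells, against 81.9, 89.9 and 87.0 CPM in shcontrol cells. Its lowest shITGB5 library lay above its highest shcontrol library, and its log2 change was 0.30 (edgeR, adjusted p = 2.39e-07). MCM2 (chr3:127598223-127622436) had 167, 181 and 175 CPM in shITGB5 cells, against 151, 134 and 142 CPM in shcontrol cells. It too did not overlap, with a log2 change of 0.29 (edgeR, adjusted p = 5.62e-09). MCM6 had 149, 158 and 151 CPM in shITGB5 cells, against 131, 128 and 127 CPM in shcontrol cells, a log2 change of 0.24 (edgeR, adjusted p = 2.67e-07).

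The 6 ring subunits all rose, but not by the same amount. The log2 changes of MCM7 (0.15, 95% interval 0.10 to 0.20), MCM4 (0.12, 0.07 to 0.17) and MCM3 (0.07, 0.02 to 0.12) were smaller than those of MCM2 (0.22 to 0.37) and MCM5 (0.28 to 0.42), and these intervals did not overlap. Per length, the 3 least changed subunits were the 3 most abundant: MCM3 averaged 146.5 FPKM (CPM per kilobase of gene model) in shITGB5 cells and 139.6 FPKM in shcontrol cells, and MCM5 averaged 19.1 FPKM in shITGB5 cells and 15.0 FPKM in shcontrol cells. These FPKM values rest on gene lengths that merge all exons of a gene. Summed over the ring, MCM2 to MCM7 reached 2045, 2068 and 2065 CPM in shITGB5 cells, against 1861, 1852 and 1837 CPM in shcontrol cells. The ring sums of the groups were clearly apart. CDC6, which loads the ring with ORC, had 99.9, 90.2 and 88.5 CPM in shITGB5 cells, against 83.4, 82.8 and 83.6 CPM in shcontrol cells (log2 change 0.16, edgeR, adjusted p = 0.00818). Without shITGB5 library 1, its adjusted p was 0.193. MCM3 failed in 5 of the 6 fits with 1 library left out, passing only without shITGB5 library 2 (adjusted p = 0.0472). The origin recognition complex subunits ORC6 and ORC1 did not pass, at log2 changes of 0.07 (adjusted p = 0.41) and -0.03 (adjusted p = 0.825). Among the other replication genes given below, the subunit ORC3 fell (log2 change -0.19, edgeR, adjusted p = 0.0217), and ORC2, ORC4 and ORC5 did not pass.

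**Figure D4:**
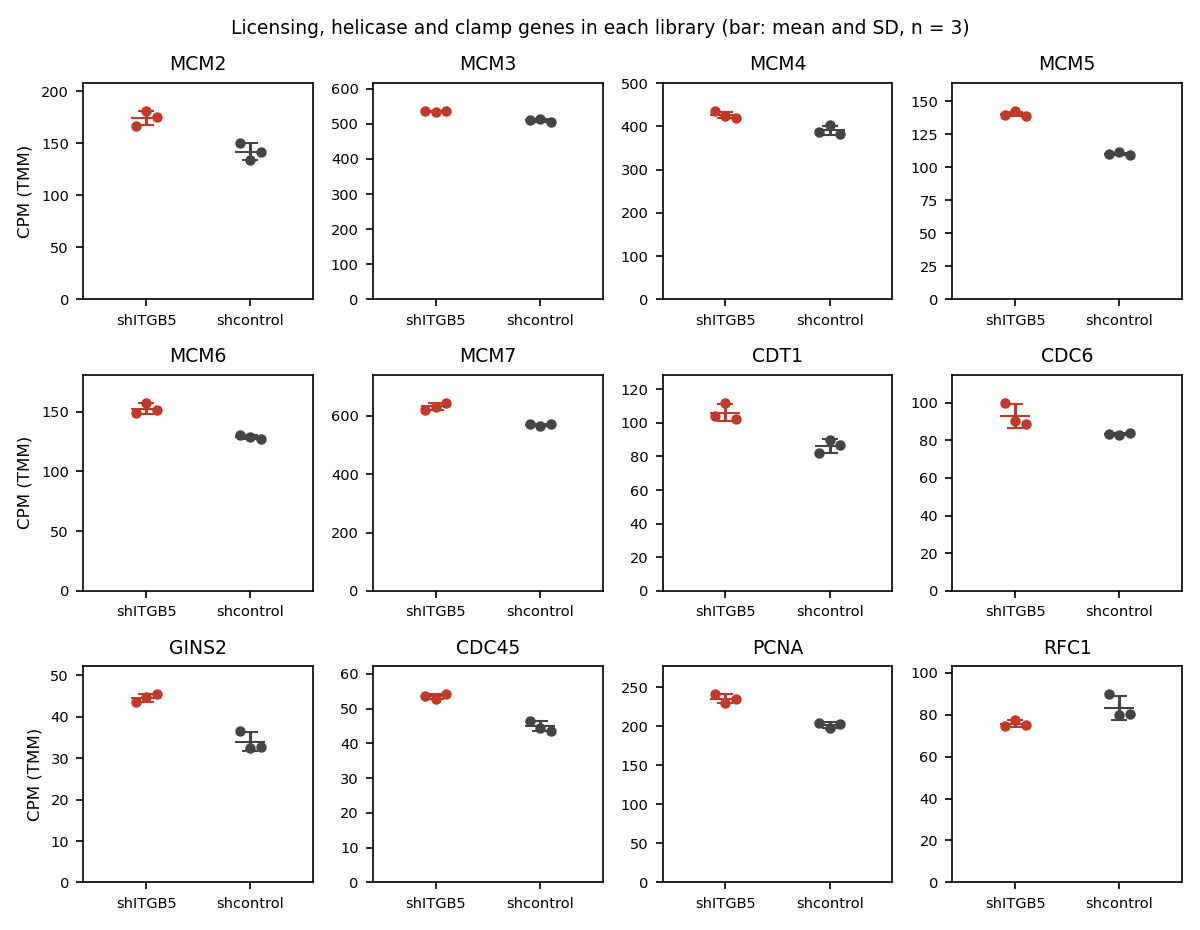
CPM (TMM scaled) of 12 licensing, helicase and clamp genes in each library, shITGB5 left and shcontrol right in each panel, with every axis starting at 0. Dots are single libraries and bars the mean and SD (n = 3). In the panels of MCM2 to MCM7, CDT1, CDC6, GINS2, CDC45 and PCNA all shITGB5 dots lie above all shcontrol dots, and in that of RFC1 all lie below.

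Of the 6 helicase activation genes 2 rose and none fell. GINS2 (chr16:85676198-85690073), a subunit of the GINS complex and the most changed of the 51 genes, had 43.5, 44.9 and 45.5 CPM in shITGB5 cells, against 36.6, 32.6 and 32.8 CPM in shcontrol cells. The groups did not overlap, and its level was 31.1% higher (log2 change 0.39, edgeR, adjusted p = 3.11e-06). CDC45, which joins the ring to GINS, had 53.7, 52.6 and 54.1 CPM in shITGB5 cells, against 46.5, 44.6 and 43.7 CPM in shcontrol cells (log2 change 0.25, edgeR, adjusted p = 5.45e-04). The other GINS subunits did not pass: GINS1 had a log2 change of 0.06, GINS4 of -0.08 and GINS3, at 8.01 to 9.24 CPM in shITGB5 cells and 8.42 to 9.72 CPM in shcontrol cells, of -0.13. Their intervals reached 0.17, 0.04 and 0.12, below the 0.26 at which the interval of GINS2 began. MCM10, which acts at helicase activation, lay higher in all 3 shITGB5 libraries (log2 change 0.15) but did not pass (edgeR, adjusted p = 0.106).

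The clamp and its loader split. PCNA (chr20:5114953-5126626), the sliding clamp, had 241, 230 and 235 CPM in shITGB5 cells, against 205, 197 and 203 CPM in shcontrol cells, with no overlap and a log2 change of 0.22 (edgeR, adjusted p = 5.19e-08). Per length it averaged 160.2 FPKM in shITGB5 cells and 137.1 FPKM in shcontrol cells. RFC1 (chr4:39287456-39366375), the large subunit of the clamp loader, was the only gene of the 51 that fell. It had 74.8, 77.5 and 75.1 CPM in shITGB5 cells, against 89.8, 79.7 and 80.3 CPM in shcontrol cells, a log2 change of -0.14 (edgeR, adjusted p = 0.0346). Its first shcontrol library stood above the other two, and without that library the log2 change was -0.08 (edgeR, adjusted p = 0.381). It also failed without shITGB5 library 1 (adjusted p = 0.0994) or library 3 (adjusted p = 0.103). RFC2, a small loader subunit, had 49.4, 48.2 and 47.4 CPM in shITGB5 cells, against 42.5, 44.3 and 42.9 CPM in shcontrol cells (log2 change 0.16, edgeR, adjusted p = 0.0448). That call ended in all 6 fits with 1 library left out, with adjusted p between 0.0681 and 0.154. RFC3, RFC5 and RFC4 had log2 changes of 0.09, 0.07 and 0.04 and did not pass.

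Of 7 genes for polymerases and primase 1 rose and none fell, and their median log2 change was 0.003, the lowest of the 9 roles. POLE, the catalytic subunit of leading strand polymerase epsilon, had 166, 163 and 160 CPM in shITGB5 cells, against 147, 150 and 148 CPM in shcontrol cells (log2 change 0.14, edgeR, adjusted p = 0.00227). The catalytic subunits of polymerases alpha and delta did not pass, POLA1 at a log2 change of 0.02 (95% interval -0.08 to 0.13) and POLD1 at -0.01 (-0.10 to 0.07). POLE2, POLD3 and POLA2, accessory subunits, did not pass at log2 changes of -0.03, -0.11 and 0.003. PRIM1, the catalytic primase subunit, had 24.2, 23.3 and 27.0 CPM in shITGB5 cells, against 22.9, 22.4 and 18.2 CPM in shcontrol cells. Its groups did not overlap, but at a log2 change of 0.23 it stayed just outside the threshold (edgeR, adjusted p = 0.0606). It passed without shITGB5 library 2 (adjusted p = 0.0416), shcontrol library 1 (0.0370) or shcontrol library 2 (0.0483). Without shcontrol library 3 its log2 change was 0.13 (adjusted p = 0.408), without shITGB5 library 3 it was 0.16 (adjusted p = 0.329), and without shITGB5 library 1 the adjusted p was 0.0819. PRIM1 shares 6.77% of its exon bases with HSD17B6 and NACA, and NACA had 1610% as many counts. POLA2 shares 35.1% of its exon bases with AP000944.2, which had 17.5% as many counts.

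Of 5 genes for single strand binding and lagging strand maturation 1 rose. FEN1, the flap nuclease that trims Okazaki fragments, had 206, 201 and 194 CPM in shITGB5 cells, against 169, 174 and 175 CPM in shcontrol cells (log2 change 0.22, edgeR, adjusted p = 5.01e-07). FEN1 shares 8.68% of its exon bases with FADS2 and TMEM258, which also rose (log2 changes 0.33 and 0.18), and reads from overlapping genes cannot be assigned without the counting settings. The single strand binding subunits RPA3, RPA2 and RPA1 had log2 changes of 0.16 (adjusted p = 0.0915), 0.08 and -0.06, and LIG1, the ligase that seals Okazaki fragments, 0.07. None of these 4 passed.

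All 4 genes of nucleotide supply had positive changes, and 1 passed. RRM2, the regulatory subunit of ribonucleotide reductase whose level is known to peak in S phase, had 46.2, 43.0 and 41.9 CPM in shITGB5 cells, against 38.0, 35.0 and 37.9 CPM in shcontrol cells (log2 change 0.24, edgeR, adjusted p = 0.00356). RRM1, its large partner subunit, did not pass at a log2 change of 0.05. TYMS, thymidylate synthase, had 39.7, 44.5 and 42.5 CPM in shITGB5 cells, against 38.4, 37.9 and 36.2 CPM in shcontrol cells. The groups did not overlap, yet it missed the threshold (log2 change 0.17, edgeR, adjusted p = 0.0574), and it passed without shITGB5 library 1 (adjusted p = 0.0290). In the other 5 fits with 1 library left out it did not pass, with adjusted p between 0.0856 and 0.262. TYMS shares 46.6% of its exon bases with ENOSF1 and TYMSOS, and RRM2 shares 20.2% with AC007240.1, which had 1.45% as many counts. TK1, thymidine kinase 1 of the salvage pathway, lay higher in all 3 shITGB5 libraries but did not pass (log2 change 0.10, adjusted p = 0.144).

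All 4 chromatin genes lay higher in every shITGB5 library than in any shcontrol library, and 2 passed. That separation was shown by 14.7% of all genes tested. Of 8 other chromatin genes, 1 lay above in this way, 1 lay below and 6 overlapped. UHRF1, which guides maintenance DNA methylation behind the fork, had 1733, 1653 and 1822 raw counts in shITGB5 cells, against 1517, 1347 and 1319 in shcontrol cells. Scaled, these came to between 96.5 and 103.5 CPM in shITGB5 cells and between 80.3 and 87.0 CPM in shcontrol cells (log2 change 0.26, edgeR, adjusted p = 4.78e-06). CHAF1A, a subunit of the histone chaperone CAF-1, had 105.5, 100.4 and 99.8 CPM in shITGB5 cells, against 92.2, 89.4 and 90.8 CPM in shcontrol cells (log2 change 0.17, edgeR, adjusted p = 0.00222). Its partner CHAF1B had a log2 change of 0.24, at 17.2 ± 0.834 CPM in shITGB5 cells and 14.6 ± 0.703 CPM in shcontrol cells (SD, n = 3 each), but did not pass (edgeR, adjusted p = 0.0772). SLBP, which binds histone mRNA, did not pass at 0.06.

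Among E2F and cyclin E genes, the activators E2F1 and E2F2 rose and neither cyclin passed. E2F3, among the other replication genes below, did not pass. E2F1 had 136, 143 and 136 CPM in shITGB5 cells, against 121, 120 and 123 CPM in shcontrol cells (log2 change 0.19, edgeR, adjusted p = 6.13e-05). E2F2 had 30.4, 31.9 and 35.5 CPM in shITGB5 cells, against 28.2, 28.6 and 27.2 CPM in shcontrol cells (log2 change 0.22, edgeR, adjusted p = 0.0298). E2F2 was highest in shITGB5 library 3, without which the adjusted p was 0.272, and it was 0.0688 without shcontrol library 1 and 0.113 without shcontrol library 3. CCNE1 had a log2 change of -0.02 (95% interval -0.17 to 0.13) and CCNE2 of 0.05 (-0.22 to 0.31), so that neither was resolved from 0 in these data. CCNE2 shares 37.0% of its exon bases with INTS8, which had 939% as many counts and fell by 0.17 on the log2 scale (edgeR, adjusted p = 0.00803).

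Of 5 checkpoint and repair genes 2 rose. DTL (chr1:212035553-212107400), which directs the destruction of CDT1 in S phase, had 108, 98.5 and 101 CPM in shITGB5 cells, against 85.4, 84.5 and 76.7 CPM in shcontrol cells, with no overlap and a log2 change of 0.32 (edgeR, adjusted p = 9.70e-08). UNG, the uracil DNA glycosylase, had 98.8, 99.2 and 97.0 CPM in shITGB5 cells, against 80.5, 81.7 and 80.4 CPM in shcontrol cells (log2 change 0.28, edgeR, adjusted p = 3.87e-07). CLSPN, a mediator of the ATR checkpoint, did not pass at 0.12, nor did the nuclease EXO1 at -0.002 and the helicase BLM at -0.10.

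Of another 79 genes of the same pathways 11 rose (13.9%) and 6 fell (7.59%), against 8.31% and 6.74% of all genes tested. The median log2 change of the 79 genes was -0.01, and their shares were not tested against those of all genes. The largest rises were those of TIPIN, a fork protection factor (log2 change 0.41, edgeR, adjusted p = 0.00798), CDC25A, the phosphatase that activates CDK2 (0.40, adjusted p = 3.28e-09), and RBL1, an RB family member (0.32, adjusted p = 8.65e-04). They were followed by E2F8, GMNN, the inhibitor of CDT1, and TFDP1, the dimer partner of E2Fs, at 0.31, 0.26 and 0.25. E2F7, an E2F repressor, fell by 0.34 on the log2 scale (edgeR, adjusted p = 0.0346), CCNA2, cyclin A2, by 0.22 (adjusted p = 1.16e-06), and CDC25C, ORC3, DBF4 and RB1 by 0.21, 0.19, 0.18 and 0.15. None of the 14 other polymerase, loader and maturation genes passed. The number called lower changed with the library left out. It was 1 without shcontrol library 2, 2 without shITGB5 library 2 and 3 without shcontrol library 1. Without shITGB5 library 1 it was 4, and without shITGB5 library 3 it was 5. The cause was not tested.

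Genes of G2 and M phase went the other way. Of 25 such genes 19 fell (76%) and 1 rose (4%), against 6.74% and 8.31% of all genes tested. The 25 genes had a median log2 change of -0.25. They summed to 3006, 2952 and 3019 CPM in shITGB5 cells, against 3496, 3518 and 3501 CPM in shcontrol cells. HMMR, KIF20A, CDC20 and CCNB1, which act in spindle assembly or mitotic entry and exit, fell by 0.42, 0.41, 0.36 and 0.35 on the log2 scale (edgeR, adjusted p between 7.59e-14 and 7.96e-10). BIRC5 was the 1 that rose, at 0.29 (adjusted p = 3.67e-07). No test compared the 2 groups of genes with each other.

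**Figure D5:**
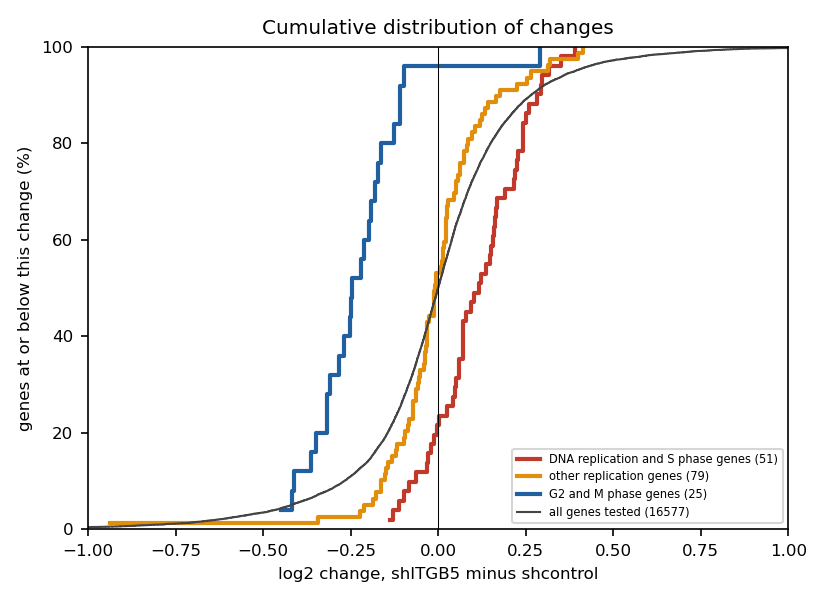
Cumulative share of genes (%) at or below each log2 change, shITGB5 minus shcontrol, for the 51 replication and S phase genes, 79 other replication genes, 25 G2 and M phase genes and all 16577 genes tested. The curve of the 51 genes crosses 50% at 0.12, that of the other replication genes at -0.01 and that of G2 and M phase genes at -0.25, and the axis is cut at -1 and 1.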

How the data were processed

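The authors deposited 1 table of whole-number counts per gene, analysed as raw counts although it is named for FPKM, with a gene length for each gene, per the file headers. Positions of all 58735 genes equalled GENCODE 29 (GRCh38). Read alignment and counting, strand handling included: not given in the sources used here. Total RNA went into a strand-preserving library kit, per the labels' protocols. Groups follow the sample titles. Column codes S and NC were read as ITGB5 and control hairpin, which the labels do not spell out. No mapped column was left out.

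Counts were tested with edgeR 4.0.16 (R 4.3.3): filterByExpr, TMM, quasi-likelihood test, two-sided, Benjamini-Hochberg adjustment over 16577 genes, threshold 0.05. The step was checked on simulated data. FPKM was computed here from counts and lengths. A count of 0 still allows 0.167 to 0.19 CPM (3 counts, counting error only). Alternatives were other scalings and filters, DESeq2 1.42.0, limma 3.58.1 (prior count 2), a replicate block, overlap limits and leaving out each library. Promoter sequences are RefSeq's. The genes and lists were chosen with earlier results of these data known. Values in every library are given for up to 4 genes past the threshold with the largest change in each role, and for genes nearest the threshold.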

Additional observations from a re-analysis of the deposited data

How the results depend on the processing

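Of the 21 genes that rose, 17 passed in all 14 alternative fits, and no gene that passed changed sign. MCM3, RFC2, CDC6 and E2F2 each failed in at least 1. The number that rose was 18 to 22 over these fits and 18 to 21 with 1 library left out, where the median log2 change was 0.102 to 0.132. Among the 32 genes whose region overlaps no other expressed gene, 14 rose and the median was 0.091. Among the 43 that share under 5% of their exon bases with other tested genes, a limit chosen after seeing the data, 18 rose and the median was 0.103. RFC1 was not called with no count filter or with DESeq2 (0 genes lower), and 0 to 1 genes were lower with 1 library left out. Of the other replication genes, 3 fell with no count filter and 1 to 5 with 1 library left out, against 6. The all-gene count was 1939 to 2183 with 1 library left out, against 2495. The cause of these shifts was not tested.

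Genes that never passed changed sign near 0: POLA2 was -0.001 by library totals and with a mean CPM of at least 5, EXO1 0.005 with no count filter, and with 1 library left out POLA1 ran from -0.002 to 0.060, POLA2 from -0.028 to 0.039, POLD1 from -0.041 to 0.037, POLE2 from -0.092 to 0.044, CCNE1 from -0.048 to 0.004, EXO1 from -0.024 to 0.015, RFC5 from -0.001 to 0.119 and ORC1 from -0.088 to 0.005.

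Deviations of same-numbered libraries correlated at 0.028, -0.0001 and -0.0174, and those of differently numbered libraries at -0.0376 to 0.0382. No shared deviation by number was thus seen. Whether the numbers mark paired cultures is not stated, and these correlations cannot show it. With the replicate number as a block, 19 genes rose and 1 fell, and MCM3 (adjusted p = 0.0761) and RFC2 (0.0586) no longer passed.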

Other observations

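Words of 7 bases that an earlier analysis of these data had picked in 3′ untranslated regions were counted in the replication genes. AGACCAA or GACCAAA stood in 7 of 51 genes (13.7%), against 15.7% of 13384 protein-coding genes tested. These were 2 of the 21 that rose (9.52%), GINS2 and UNG, and 5 of the 29 that did not pass (17.2%). TCGGAGA or CGGAGAA stood in 2 of 51 (3.92%), GINS3 and DTL, against 3.34%.

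MCM2 shared 0.918% of its exon bases with TPRA1 and GINS2 shared 0.214% with another tested gene, whereas MCM7 shared 8.94% with AP4M1, which had 2.77% as many counts as MCM7 and did not pass.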
